A study of Rattus norvegicus with 6 samples.

Results

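The cluster of miR-322, miR-503, miR-351, miR-542 and miR-450a is a run of X-linked microRNA (miRNA) hairpins. Its members were taken by name from the deposited count table and came to 10 mature miRNAs, both arms of 5 hairpins, of 728 listed. They were counted by small RNA sequencing in exosomes, small membrane vesicles, released by cultured heart fibroblasts of Wistar rats aged 1 to 2 days after birth, and in the fibroblasts themselves, with 3 libraries per group. Both groups came from cells grown with 10% serum, penicillin and streptomycin, and the labels name no other agent. Vesicles were taken by ultracentrifugation from medium conditioned for 48 h with 1% exosome-depleted serum. The same 48 h of conditioning with 1% serum is given for the fibroblast samples. The labels number the exosome samples 1, 2 and 3, but in the count table the columns read 1, 2 and, for the last, no number, so that column is called unnumbered, while the fibroblast libraries are numbered 1, 2 and 4. The labels name neither the animals nor the cultures behind a library, so a p-value here reflects the spread among these libraries alone, part of which may be technical.

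A miRNA hairpin is cut into a 5p and a 3p strand; usually 1 strand is kept in the silencing complex, where its seed, bases 2 to 8, pairs with messenger RNAs. In rodents miR-322 and miR-503 are the counterparts of human miR-424 and miR-503. They restrain the cell cycle by repressing cyclins and their kinases, and both belong to the extended miR-15/16 family. miR-351 carries the seed of the miR-125 family. Hairpins clustered in this way are generally transcribed together, so that their mature products start from a shared primary transcript. Whether 1 transcript held all 5 hairpins in these cells was not tested.

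The mature sequences of all 10 members are shown because the arms and seeds are what the comparisons below set side by side. They are from RefSeq (build GRCr8), 5′ to 3′, with the seed in capitals; the prefix rno-, for rat, is dropped after this.
rno-miR-322-5p: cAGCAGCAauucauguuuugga
rno-miR-322-3p: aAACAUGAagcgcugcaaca
rno-miR-503-5p: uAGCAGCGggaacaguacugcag
rno-miR-503-3p: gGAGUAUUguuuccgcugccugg
rno-miR-351-5p: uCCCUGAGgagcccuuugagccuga
rno-miR-351-3p: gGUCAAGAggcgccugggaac
rno-miR-542-5p: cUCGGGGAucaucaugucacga
rno-miR-542-3p: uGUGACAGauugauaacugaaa
rno-miR-450a-5p: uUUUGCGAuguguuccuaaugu
rno-miR-450a-3p: uAUUGGGAacauuuugcauaa

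The seeds of miR-322-5p and miR-503-5p differ by 1 base, A8G, counted from 1 at the 5′ end. The seed of miR-322-5p is that of miR-15b-5p, miR-16-5p, miR-195-5p and miR-497-5p, and the seed of miR-351-5p is that of miR-125a-5p and miR-125b-5p. For 2 of these matches the sequences are shown.
miR-16-5p: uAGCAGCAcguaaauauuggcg
miR-125b-5p: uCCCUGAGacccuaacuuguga

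In GRCr8 the 5 hairpins lie on the minus strand within 5309 bases, chrX:137720933-137726241, in the order miR-322, miR-503, miR-351, miR-542 and miR-450a along the direction of transcription. The gaps between them are 220, 659, 2861 and 1152 bases. The RefSeq annotation lists a further miRNA hairpin in this span, Mir450b-1, which is not among the members taken by name. The long non-coding RNA gene LOC102550366 overlaps the span, and the protein-coding gene Plac1 lies nearby. The miR-503 and miR-351 hairpins are shown, with both mature arms in capitals, because their arm ratios changed in opposite directions in the raw counts.
miR-503 hairpin: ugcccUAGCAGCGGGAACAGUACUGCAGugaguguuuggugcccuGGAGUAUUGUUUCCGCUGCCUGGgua
miR-351 hairpin: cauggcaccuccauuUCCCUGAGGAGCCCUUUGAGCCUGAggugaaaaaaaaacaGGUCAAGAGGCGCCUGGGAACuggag

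The exosome libraries were shallow, with 113129 to 120224 miRNA counts, against 2439559 to 12508651 in fibroblasts. A single other miRNA, miR-873-3p, took 98791 to 107169 of the exosome counts and left 18164, 14338 and 11825 in libraries 1, 2 and unnumbered. In the far deeper fibroblast libraries it took 48963 to 80123 counts and left 2381654 to 12459688, so its share there was small. The unnumbered exosome library stood apart: 6 mesenchymal marker miRNAs made up 8.66% of its counts without miR-873-3p, against 0.754% and 1.10% in exosome libraries 1 and 2 and 34.5% to 39.4% in fibroblasts. On the same scale the 5 cardiomyocyte markers made up 0.0254% to 0.0628% in exosomes and 0.00743% to 0.0149% in fibroblasts. The 2 endothelial markers made up 0.639% to 0.973% in exosomes and 0.0101% to 0.0156% in fibroblasts. The 4 listed blood markers made up 0.110% to 0.139% in exosomes and 0.00298% to 0.0172% in fibroblasts. With miR-873-3p kept in the totals, the cardiomyocyte markers were at 0.00252% to 0.00796% in exosomes and 0.00726% to 0.0149% in fibroblasts. The blood markers were then at 0.0109% to 0.0183% in exosomes and 0.00291% to 0.0171% in fibroblasts. Both pairs of ranges overlapped, while those of the endothelial markers, 0.0840% to 0.0966% in exosomes and 0.0100% to 0.0152% in fibroblasts, did not. No marker was at 0 over a whole group, and the part of other cells' RNA in the results was not tested. Levels below are counts, shares of counts, or counts scaled to a common library size by TMM (CPM). Fold changes are exosome over fibroblast from edgeR's quasi-likelihood fit over all 698 tested miRNAs with Benjamini-Hochberg adjustment. In that fit the 2 endothelial markers, arms of the same hairpin, differed. miR-126a-3p was higher in exosomes (log2 4.85, edgeR adjusted p = 1.3e-06), and miR-126a-5p was not called (log2 0.30, adjusted p = 0.78).

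The products of this 1 cluster did not share a direction. Relative to fibroblasts, exosomes held less of both miR-322 arms, miR-351-5p, miR-450a-5p and miR-542-3p, and more miR-503-5p, although with total counts without miR-873-3p, a scaling added after the data were seen, miR-322-3p and miR-450a-5p lost their calls and the sign of miR-542-3p turned. A share of counts cannot tell apart fewer vesicles that carry a miRNA and less of it per vesicle. All 10 members passed the filter on low counts, miR-450a-3p only by way of its exosome reads. Of the 10 members, 5 fell and 1 rose at an adjusted p under 0.05, and 4 did not pass. Over all tested miRNAs 29.9% passed, 18.6% lower and 11.3% higher. The members had a median log2 change of -1.59, all tested miRNAs one of -0.15.

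**Figure D1:**
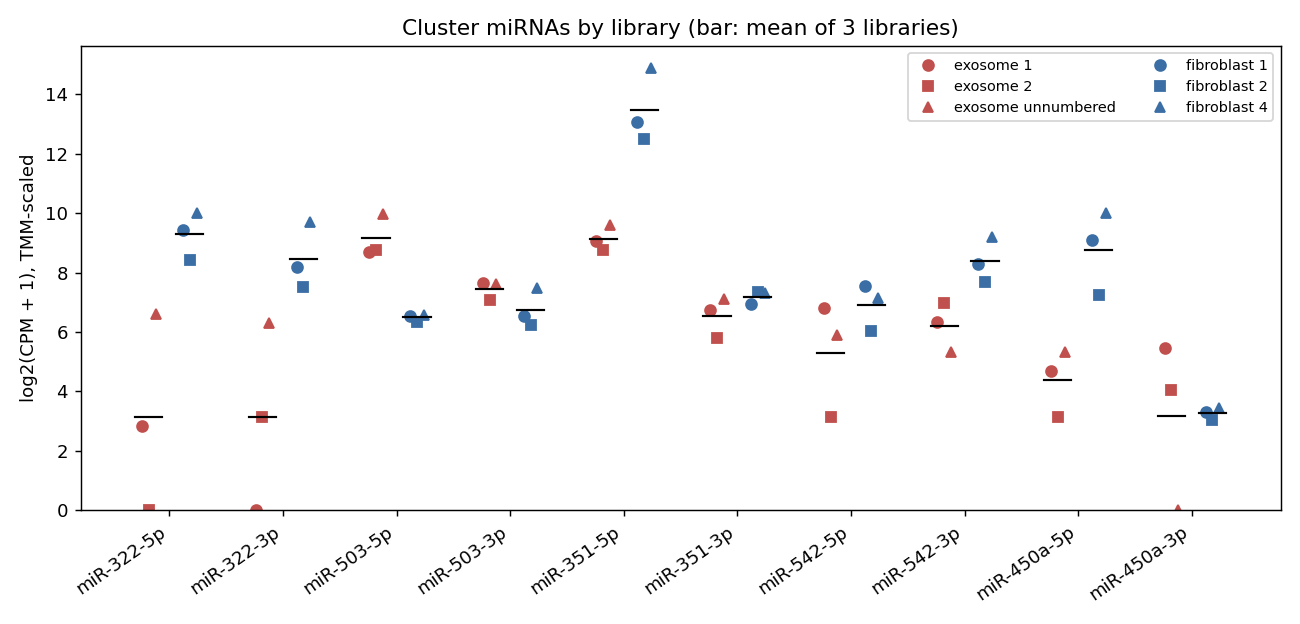
Level of each cluster miRNA in each library as log2(CPM + 1) with TMM scaling; red marks are exosome libraries, blue marks fibroblast libraries, and bars the mean of 3. miR-503-5p sits higher in every exosome library, while both miR-322 arms, miR-351-5p, miR-542-3p and miR-450a-5p sit lower in every exosome library.

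As shares of counts without miR-873-3p, miR-351-5p and miR-503-5p stood at the top of the cluster in exosomes, at 0.398% ± 0.0688 and 0.397% ± 0.0374 (SD, n = 3 each), and did not differ beyond their spread. Next came miR-503-3p at 0.126% ± 0.0463 and, a step lower, miR-351-3p at 0.0672% ± 0.0234 and miR-542-3p at 0.0667% ± 0.0475. The remaining 5 members were at 0.0136% to 0.0438%, each with an SD of 0.00765 to 0.0488, and miR-322-5p among them was at 0.0159% ± 0.0230. The order in fibroblasts was another one. There miR-351-5p led the cluster alone on the same scale, with 1.48% ± 0.850 (SD, n = 3), and ranked 18, 17 and 6 among the 728 listed miRNAs in libraries 1, 2 and 4. Below it came miR-322-5p at 0.0731% ± 0.00887, miR-450a-5p at 0.0553% ± 0.0265, miR-322-3p at 0.0438% ± 0.0203 and miR-542-3p at 0.0395% ± 0.00887 (SD, n = 3 each). Neighbours among these 4 differed by no more than the larger SD of the pair. A lower step held miR-351-3p at 0.0189%, miR-542-5p at 0.0141%, miR-503-3p at 0.0128% and miR-503-5p at 0.0109%, again with neighbours within their SD. miR-450a-3p was lowest at 0.00104% ± 0.000358.

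miR-503-5p, the strand of miR-503 with the miR-16-like seed, had 67, 55 and 52 counts in exosome libraries 1, 2 and unnumbered, against 568, 1998 and 183 in fibroblast libraries 1, 2 and 4. As CPM these were 415, 431 and 1012 in exosomes, against 92.0, 80.3 and 94.7 in fibroblasts. The TMM factor of the unnumbered library was 0.432, against 1.34 and 1.13 in exosome libraries 1 and 2. As shares of counts without miR-873-3p the exosome values lay closer together, at 0.369%, 0.384% and 0.440%. In CPM the groups did not overlap. The rank of miR-503-5p among listed miRNAs was 51, 46 and 38 in exosomes against 258, 304 and 276 in fibroblasts. It was 6.86-fold higher in exosomes (log2 fold change 2.78, SE 0.71, edgeR adjusted p = 0.00078). The call held under all 17 other settings, with log2 fold changes between 1.83 and 5.18 and adjusted p between 1.4e-09 and 0.022. Without the unnumbered exosome library the log2 fold change was 2.18. The opposite strand, miR-503-3p, had 32, 17 and 10 counts in exosomes, against 570, 1861 and 342 in fibroblasts. Its groups overlapped, and at 0.61 on the log2 scale (SE 0.61) it missed the threshold, with an edgeR adjusted p of 0.49. It was called higher with the fibroblast libraries thinned (log2 1.49, adjusted p = 0.034) and with total counts without miR-873-3p (log2 3.32, adjusted p = 0.00010), and turned to -0.19 with library sizes that include the reads outside the listed miRNAs, where the adjusted p was 0.88.

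miR-322-5p, the member with the full miR-16 seed, had 1, 0 and 5 counts in exosomes, against 4299, 8426 and 1984 in fibroblasts. The groups did not overlap in CPM, and it was 30.5-fold lower in exosomes, a log2 value of -4.93 (SE 0.92, edgeR adjusted p = 4.1e-06). Its partner strand miR-322-3p had 0, 1 and 4 counts in exosomes, against 1802, 4484 and 1594 in fibroblasts, and was 24.1-fold lower, at -4.59 on the log2 scale (SE 0.88, edgeR adjusted p = 7.5e-06). Both folds rest on 6 and 5 exosome reads, 9 of which came from the unnumbered library, the one with the most mesenchymal marker reads; the part of that library's difference in this result was not tested. Without it the log2 fold changes were -7.78 and -7.10, and without exosome library 1 they were -4.28 and -3.77. Without fibroblast library 4 miR-322-3p was at -3.82. With total counts without miR-873-3p its call was lost (-1.85, edgeR adjusted p = 0.093; range over the 17 other settings 2.9e-08 to 0.093).

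miR-351-5p, the most abundant member in fibroblasts, had 86, 55 and 40 counts in exosomes, against 53448, 143009 and 58283 in fibroblasts. All 3 exosome libraries lay below all fibroblast libraries in CPM, at 431 to 778 against 5747 to 30149, and the miRNA was 25.7-fold lower, a log2 value of -4.68 (SE 1.38, edgeR adjusted p = 0.0040). Without fibroblast library 4, its highest, the log2 fold change was -3.72. miR-351-3p had 17, 7 and 7 counts in exosomes, against 744, 3980 and 306 in fibroblasts, with overlapping CPM and -0.62 on the log2 scale (SE 0.63, edgeR adjusted p = 0.50).

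miR-450a-5p had 4, 1 and 2 counts in exosomes, against 3362, 3719 and 1971 in fibroblasts. The groups did not overlap, and it was 26.8-fold lower in exosomes, a log2 value of -4.74 (SE 0.87, edgeR adjusted p = 3.5e-06), or -4.06 on the log2 scale without fibroblast library 4. With total counts without miR-873-3p its call was lost (-1.83, edgeR adjusted p = 0.071; range over the 17 other settings 1.0e-08 to 0.071). miR-450a-3p had 7, 2 and 0 counts in exosomes, against 55, 181 and 19 in fibroblasts, and did not pass (log2 1.48, SE 0.98, edgeR adjusted p = 0.28). Without exosome library 1, which held 7 of its 9 exosome reads, the log2 value was 0.095, and with total counts without miR-873-3p it was called higher at 4.14 (adjusted p = 0.0080). RefSeq here gives 1 hairpin for these names, and reads of any identical copy cannot be told apart.

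miR-542-3p, which in human cells is known to repress the survival factor survivin, had 13, 16 and 2 counts in exosomes, against 1904, 5030 and 1141 in fibroblasts. Its groups did not overlap in CPM, at 81.6 ± 43.2 in exosomes and 367 ± 201 in fibroblasts (SD, n = 3 each), and it was 4.26-fold lower, a log2 value of -2.09 (SE 0.69, edgeR adjusted p = 0.011). Of the 6 calls it had the highest adjusted p. Leaving out exosome library 1 ended the call (adjusted p = 0.055), and so did a fit with the replicate number as a block in the 4 libraries numbered 1 and 2 (-1.25 on the log2 scale, adjusted p = 0.11). Leaving out exosome library 2 gave -2.82, leaving out fibroblast library 4 gave -1.54, and with total counts without miR-873-3p the value was 0.77. Over all 17 other settings its adjusted p lay between 0.00077 and 0.37. miR-542-5p had 18, 1 and 3 counts in exosomes, against 1135, 1595 and 273 in fibroblasts, and missed the threshold at -1.09 on the log2 scale (SE 0.65, edgeR adjusted p = 0.22). It was called lower, at -1.78, with library sizes that include the reads outside the listed miRNAs (adjusted p = 0.044), and turned to 1.68 with total counts without miR-873-3p (adjusted p = 0.081). Exosome library 1 held 18 of its 22 exosome reads. Without the unnumbered exosome library all 6 calls held, with log2 values of 2.18 for miR-503-5p, -5.13 for miR-351-5p, -5.25 for miR-450a-5p and -1.97 for miR-542-3p beside those of the miR-322 arms given above.

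Counted by overlap alone, 5 of the 10 members had all exosome CPM values below all fibroblast values, where 24.6% of all tested miRNAs did, and 1 had them all above, where 14.8% did. These are the 6 members that also passed the test.

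**Figure D2:**
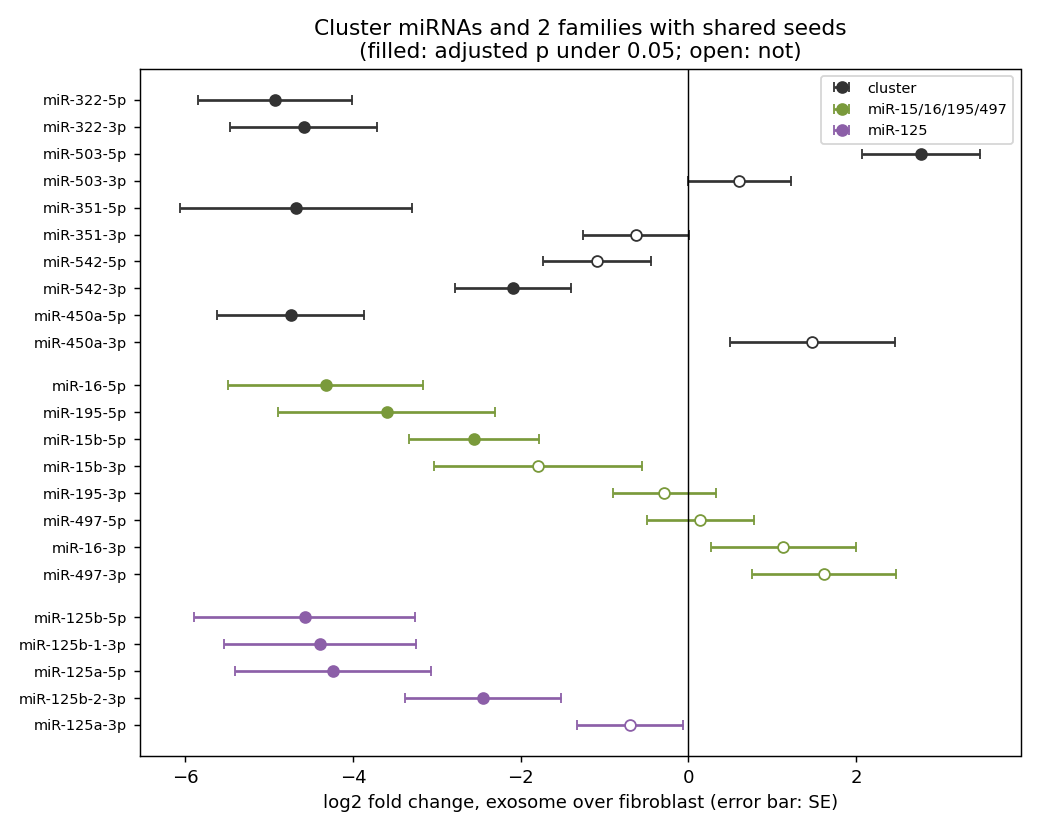
Log2 fold change of exosomes over fibroblasts with its standard error for the 10 cluster miRNAs in genome order and for the 2 families that share their seeds; filled points have an adjusted p under 0.05. miR-503-5p at 2.78 is the 1 filled point to the right of 0, and miR-322-5p, miR-322-3p, miR-351-5p and miR-450a-5p lie between -4.93 and -4.59.

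Where zero lies on this scale depended on how libraries were scaled. For all tested miRNAs the median log2 value lay between -0.98 and 2.37 over 6 scalings, with -0.98 for library sizes that include reads outside the listed miRNAs and 2.37 for total counts without miR-873-3p. With that last scaling, chosen after the data were seen, 2 members were called lower (miR-322-5p at -2.33 and miR-351-5p at -1.89) and 4 higher (miR-503-5p, miR-503-3p, miR-351-3p and miR-450a-3p). There 378 of all tested miRNAs were called higher and 36 lower, miR-322-3p and miR-450a-5p lost their calls, and miR-542-3p was not called at 0.77 (adjusted p = 0.37). The members were also placed relative to the median of all tested miRNAs. A scaling shifts all miRNAs nearly alike, so this subtraction takes most of the shift out by construction, and it does not say where zero lies. miR-503-5p lay 2.76 to 2.93 above that median on the log2 scale under the 6 scalings. miR-322-5p lay at -4.98 to -4.71 relative to it, miR-322-3p at -4.52 to -4.22, miR-351-5p at -4.63 to -4.26, miR-450a-5p at -4.64 to -4.20 and miR-542-3p at -1.97 to -1.56.

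**Figure D3:**
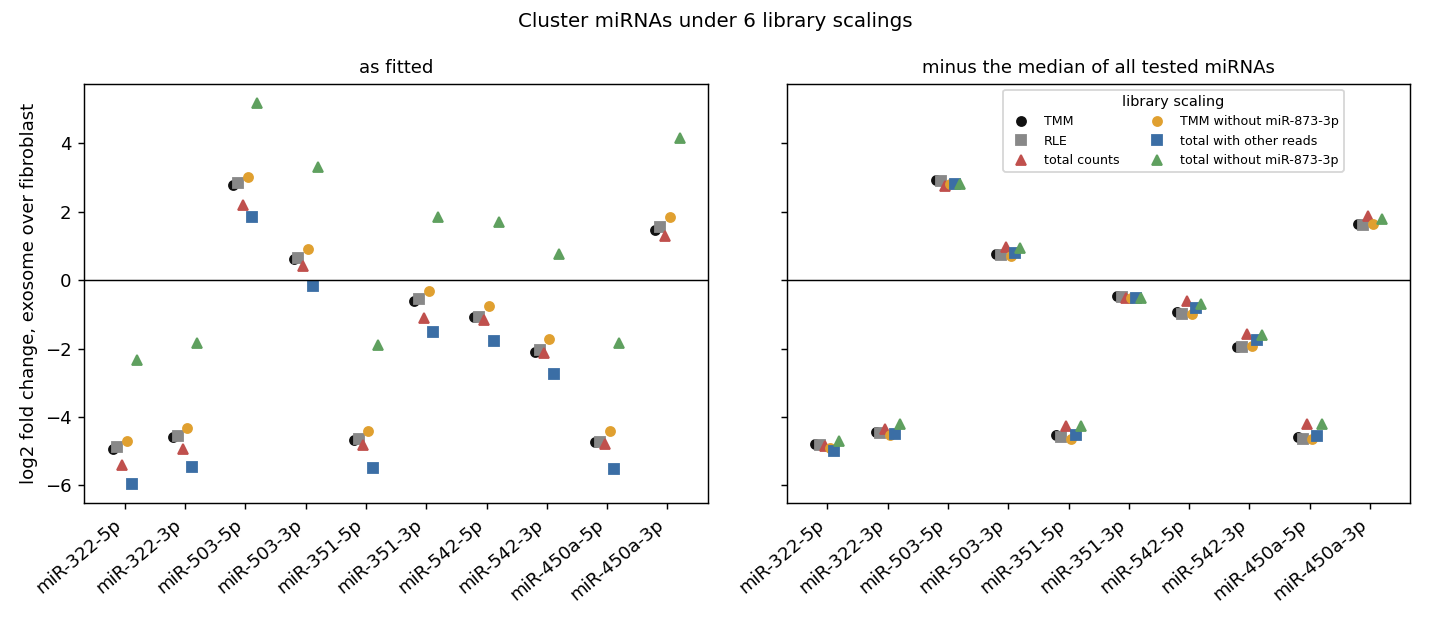
Log2 fold change of exosomes over fibroblasts for the cluster miRNAs under 6 library scalings (5 for miR-450a-3p, which missed the filter with other reads in the library sizes), as fitted (left) and after subtracting the median of all tested miRNAs (right). On the left the values for total counts without miR-873-3p lie far above the others, with miR-542-3p, miR-542-5p and miR-351-3p above 0 there; on the right, where subtracting the median takes out most of a scaling shift by construction, miR-503-5p is at 2.76 to 2.93 and miR-322-5p at -4.98 to -4.71.

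The members can also be set against each other within a library, which needs no scaling between libraries. miR-503-5p made up 34.8% ± 7.15 of all cluster counts in exosomes and 0.753% ± 0.441 in fibroblasts (SD, n = 3 each). For miR-351-5p these shares were 34.2% ± 1.91 in exosomes and 83.0% ± 4.79 in fibroblasts. For miR-322-5p they were 1.47% ± 2.20 in exosomes and 4.72% ± 1.67 in fibroblasts. The log2 ratio of miR-503-5p to miR-322-5p, with 0.5 added to each count, was 5.49, 6.79 and 3.25 in exosome libraries 1, 2 and unnumbered, against -2.92, -2.08 and -3.43 in fibroblast libraries 1, 2 and 4. The lowest exosome value lay above the highest fibroblast value. The difference of the means was 7.99 (exact permutation test, two-sided p = 0.1, the lower limit of p for 3 libraries per group; 9 such ratios were tested, so none could pass an adjustment). Against miR-322-5p, the groups did not overlap for miR-503-3p, miR-351-3p, miR-542-5p and miR-450a-3p either, with differences of 6.04, 4.74, 3.91 and 6.56 (exact permutation p = 0.1 each). They overlapped for miR-322-3p, miR-351-5p, miR-542-3p and miR-450a-5p, with differences of 0.73, 0.98, 3.26 and 1.19 (exact permutation p = 0.6, 0.5, 0.3 and 0.3). In the edgeR fit miR-322-5p had the lowest log2 fold change of the members, -4.93. A rise against it therefore does not mean that a mate was higher in exosomes. miR-351-3p at -0.62 and miR-542-5p at -1.09, for example, were not called in that fit. Each of the 9 ratios carries the 6 exosome reads of miR-322-5p, and several moved by over 1.5 times with the pseudocount, the table or a library left out. For miR-503-5p the difference ranged between 7.18 and 8.95, for miR-503-3p between 5.23 and 7.33 and for miR-351-3p between 4.10 and 5.83. For miR-450a-3p it ranged between 5.36 and 8.48, for miR-542-5p between 2.86 and 5.00 and for miR-542-3p between 1.92 and 5.01. For miR-351-5p it ranged between 0.17 and 2.12 and for miR-450a-5p between 0.74 and 2.10. Without the unnumbered exosome library each of these 8 differences was at its highest. For miR-322-3p it ranged between -0.11 and 1.47.

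The 10 members together held 0.204%, 0.137% and 0.105% of the counts of exosome libraries 1, 2 and unnumbered. The 95% Clopper-Pearson intervals were 0.179 to 0.231, 0.116 to 0.160 and 0.0874 to 0.125. In fibroblast libraries 1, 2 and 4 the members held 1.06%, 1.39% and 2.71%. With miR-873-3p taken out of the total, the shares were 1.35%, 1.08% and 1.06% in exosomes, against 1.08%, 1.40% and 2.78% in fibroblasts, and the groups overlapped. Had the exosome counts without miR-873-3p followed the mean fibroblast shares, they would have held 4.84 reads of miR-503-5p, where 174 were counted. They would have held 32.4 reads of miR-322-5p and 657 of miR-351-5p, where 6 and 181 were counted. For miR-322-3p and miR-450a-5p, too, fewer were counted, 5 and 7, than the 19.4 and 24.5 that the fibroblast shares give. The other 5 members were above those numbers: 59 reads of miR-503-3p were counted against 5.67, 31 of miR-351-3p against 8.36, 22 of miR-542-5p against 6.25 and 9 of miR-450a-3p against 0.462. miR-542-3p, called lower under TMM scaling, had 31 reads against 17.5 on this scale.

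**Figure D4:**
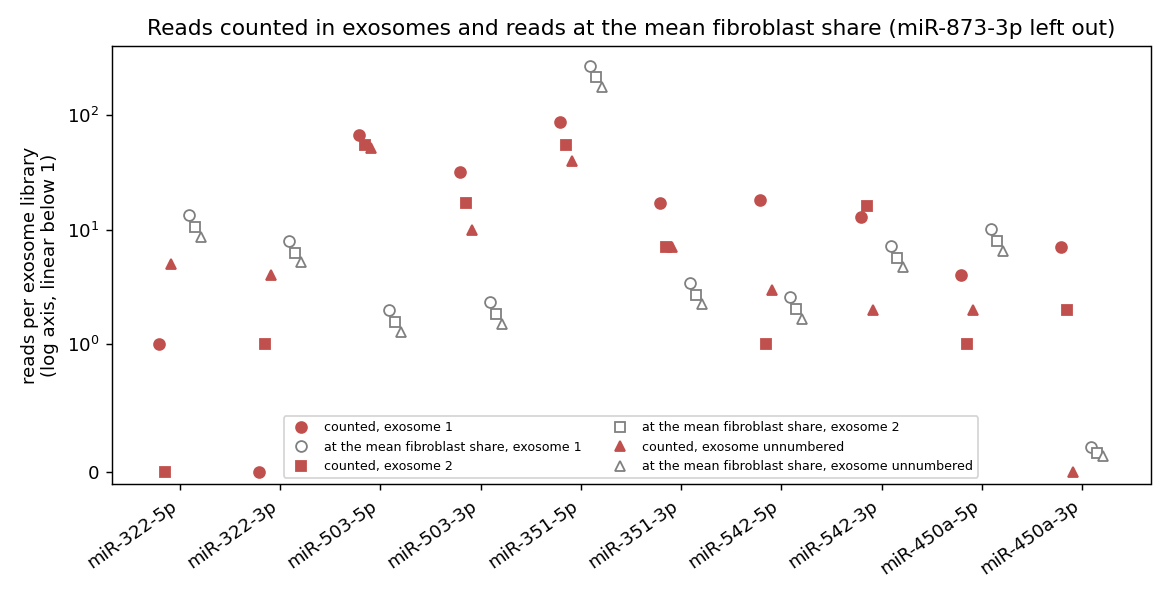
Reads counted in each exosome library (red) and the reads that library would hold at the mean fibroblast share, with miR-873-3p left out of all totals (open grey); the vertical axis is logarithmic above 1. Counted reads of miR-503-5p (52 to 67) lie above and those of miR-351-5p (40 to 86) below the open marks in all 3 exosome libraries.

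Whether the 2 arms of a hairpin kept their ratio was asked next. The 5p arm of miR-351 fell relative to its 3p arm in exosomes, and so did that of miR-450a, while the 5p arm of miR-503 rose relative to its 3p arm. Of the 5 hairpins 3 were called (edgeR's diffSpliceDGE with Benjamini-Hochberg adjustment over 248 hairpins), where 33.5% of all tested hairpins were, 16.1% toward the 5p arm in exosomes and 17.3% away from it. These 3 calls are not alike. The miR-450a call is not independent of the filter, which miR-450a-3p passed only by way of its exosome reads. That of miR-503 passed narrowly (edgeR diffSpliceDGE adjusted p = 0.0496). Only the miR-351 call could be fitted and held under all 16 other settings. The 5p share of miR-351 was 83.5%, 88.7% and 85.1% in exosome libraries 1, 2 and unnumbered, against 98.6%, 97.3% and 99.5% in fibroblast libraries 1, 2 and 4. The groups did not overlap, and no exosome interval reached a fibroblast value (95% Clopper-Pearson, upper bounds 90.1%, 95.3% and 93.8%). The arm change was -4.06 on the log2 scale, 5p minus 3p (edgeR diffSpliceDGE adjusted p = 3.6e-06), and the call held under all 16 other settings that were fitted (adjusted p 6.7e-07 to 0.0015). Without fibroblast library 4 the change was -3.12, and with the replicate block it was -3.08.

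For miR-503 the 5p share was 67.7%, 76.4% and 83.9% in exosomes, against 49.9%, 51.8% and 34.9% in fibroblasts. All exosome libraries lay above all fibroblast libraries. The arm change of 2.17 on the log2 scale passed narrowly (edgeR diffSpliceDGE adjusted p = 0.0496) and was not called under 13 of 16 other settings, over which the adjusted p lay between 0.028 and 0.29. Leaving out any single exosome library, fibroblast library 1 or fibroblast library 4 ended the call (adjusted p = 0.068, 0.18, 0.15, 0.059 and 0.079), and without fibroblast library 2 it was 0.028.

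For miR-450a the 5p share was 36.4% and 33.3% in exosome libraries 1 and 2, from 11 and 3 reads, and 100% of 2 reads in the unnumbered library, against 98.4%, 95.4% and 99.0% in fibroblasts. Its arm change was -6.22 on the log2 scale (edgeR diffSpliceDGE adjusted p = 7.7e-06), -5.17 without exosome library 1 (adjusted p = 0.040) and -7.00 without the unnumbered library. This call depended on the table, and miR-450a-3p passed the count filter only by way of its exosome reads. The reads behind the deposited normalized table held 1, 0 and 0 of the 7, 2 and 0 exosome counts of miR-450a-3p, and 44, 115 and 18 of its 55, 181 and 19 fibroblast counts; with them miR-450a-3p did not pass the count filter and its arms could not be fitted. The 5p share was then 80.0%, 100% and 100% in exosomes. The arms of miR-322 (log2 change -0.34, edgeR diffSpliceDGE adjusted p = 0.79) and of miR-542 (1.00, adjusted p = 0.44) were not called. For miR-542 the 5p share was 58.1%, 5.88% and 60.0% in exosomes, against 37.3%, 24.1% and 19.3% in fibroblasts, and the groups overlapped. For miR-322 the exosome libraries held 1, 1 and 9 reads of both arms together, too few to show a difference at this depth.

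**Figure D5:**
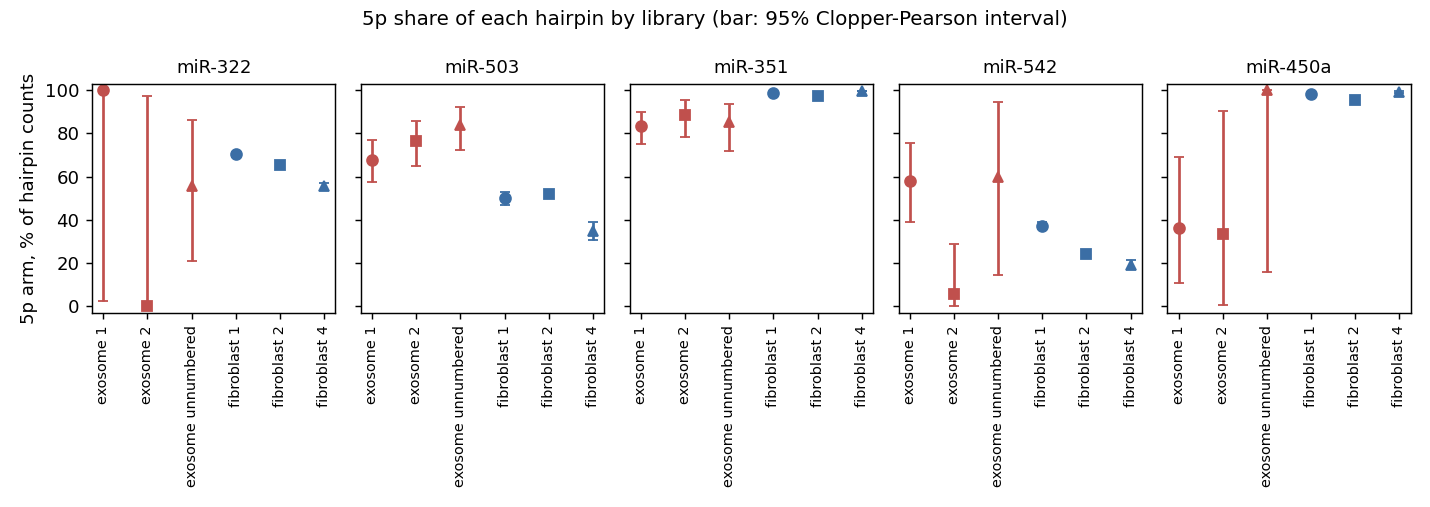
Share of each hairpin's counts that came from its 5p arm in each library, with 95% Clopper-Pearson intervals that cover counting error only; red marks are exosome libraries and blue marks fibroblast libraries. Exosome libraries lie lower for miR-351 (83.5% to 88.7%, against 97.3% to 99.5%) and higher for miR-503 (67.7% to 83.9%, against 34.9% to 51.8%), and the miR-322 and miR-450a intervals are wide.

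For the other members the 2 deposited tables were close, except in the fibroblast reads of miR-503-5p and miR-542-5p. With the reads of the normalized table the miR-503 arm change was 2.21 on the log2 scale and not called (edgeR diffSpliceDGE adjusted p = 0.066). Behind the normalized table stood 172 of the 174 exosome reads and 2534 of the 2749 fibroblast reads of miR-503-5p, and 20 of 22 exosome and 2379 of 3003 fibroblast reads of miR-542-5p. The exosome reads of both miR-322 arms, miR-450a-5p, miR-351-3p, miR-503-3p and miR-542-3p were the same in number in both. The authors' deposited table, from DESeq, called miR-322-5p alone among the members at an adjusted p under 0.05 (fibroblast over exosome 19.6-fold, adjusted p = 0.0017), where it called 7.28% of all listed miRNAs lower in exosomes and 0 higher. In the authors' deposited table miR-503-5p was at a fibroblast over exosome ratio of 0.131 (p = 0.26, adjusted p = 0.94) and miR-351-5p at 25.0 (adjusted p = 0.29). The directions in the authors' deposited table were those of the edgeR fit for every member except miR-450a-3p, which was lower in exosomes there, at 3.31-fold fibroblast over exosome.

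Set against miR-873-3p itself, the direction of miR-503-5p was the opposite. It had 0.656, 0.557 and 0.485 counts per 1000 counts of miR-873-3p in exosome libraries 1, 2 and unnumbered, against 7.09, 40.8 and 3.16 in fibroblast libraries 1, 2 and 4. On that scale it was lower in every exosome library than in any fibroblast library. The same held for each of the other members. This scale is set by the miRNA that took most exosome counts, so such a fall is not particular to miR-503-5p.

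The families that share a seed with the cluster were read from the same fit. Of the 6 listed miRNAs with the seed of miR-322-5p or miR-351-5p, 5 were lower in exosomes and 0 higher, where 18.6% of all tested miRNAs were lower and 11.3% higher; their median log2 value was -3.92. miR-16-5p, a widely expressed brake on the cell cycle, was at -4.33 (SE 1.17, edgeR adjusted p = 0.0016), miR-195-5p at -3.60 (SE 1.30, adjusted p = 0.021) and miR-15b-5p at -2.56 (SE 0.78, adjusted p = 0.0051), beside -4.93 for miR-322-5p. The exception, miR-497-5p, named after its value was seen, was not called at 0.14 (SE 0.64, edgeR adjusted p = 0.90). With total counts without miR-873-3p, miR-16-5p was still called lower, at -2.06, while miR-195-5p at -1.08 and miR-15b-5p at 0.064 were not, and miR-497-5p was called higher at 2.65. miR-195-5p also lost its call with total counts (adjusted p = 0.093) and with miR-873-3p left out of the counts (adjusted p = 0.051), so that it was called under 3 of the 6 scalings. The 3p arms of these hairpins were not called under TMM scaling, so that 3 of the 8 listed entries of this family were lower and 0 higher. That count, too, depended on the scaling. With total counts without miR-873-3p, miR-16-3p (3.42), miR-195-3p (2.12) and miR-497-3p (3.82) were called higher (edgeR adjusted p = 0.014, 0.020 and 0.0054). miR-15b-3p at 0.67 was not (adjusted p = 0.73). miR-125b-5p was at -4.58 (SE 1.32, edgeR adjusted p = 0.0031) and miR-125a-5p at -4.24 (SE 1.16, adjusted p = 0.0019), beside -4.68 for miR-351-5p. Both were also called lower with total counts without miR-873-3p, at -2.19 and -1.95. Of the 5 listed miR-125 entries 4 were lower and 0 higher under TMM scaling. The other 2 of these 4, miR-125b-1-3p at -4.40 (SE 1.14) and miR-125b-2-3p at -2.45 (SE 0.93), were at -1.72 and 0.41 with total counts without miR-873-3p. The entry not called, miR-125a-3p at -0.70, was called higher with that scaling, at 1.81 (edgeR adjusted p = 0.044). Among the 655 listed miRNAs with a RefSeq sequence, none outside the cluster had the seed of miR-503-5p.

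The short motifs GGAG and CCCU, known from studies of miRNA sorting into vesicles of human T cells, were searched in the mature sequences on the given strand only, and their matches in miR-351-5p do not overlap. GGAG was present in miR-503-3p and miR-351-5p and in 7.79% of the 655 listed miRNAs that had a sequence, and CCCU in miR-351-5p and in 9.47% of them. Neither was present in miR-503-5p. The members' GC content ranged from 28.6% in miR-450a-3p to 66.7% in miR-351-3p, with 56.5% in both miR-503 arms and 40.9% in miR-322-5p.

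Over the 6 libraries, the tested miRNAs whose centred log2 CPM came nearest to miR-503-5p were miR-6330, miR-770-5p, miR-382-5p, miR-23a-5p and miR-3543, with a root mean square difference of 0.37 to 0.42. Nearest to miR-322-5p were miR-28-5p at 0.73, miR-152-3p at 0.99, miR-27a-3p and miR-24-2-5p at 1.28 and 1.29, and miR-199a-3p at 1.40. These differences describe likeness over 6 libraries, of which the 3 exosome libraries are all shallow, and carry no test.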

How the data were processed

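The members and lists were chosen with earlier results of these data known. Per the file headers, the authors deposited a table of raw counts for each mature miRNA and library, and every main test used it. Another deposited table holds normalized values (signal), which became whole read numbers, to a tolerance of 0.05, once each library's size factor was undone; these reads came to 99.3% to 99.8% of the raw counts. Its row named rest names no miRNA, held 63.1% to 84.4% of a library's reads and was left out of library sizes except where stated. The authors' deposited comparison holds fold changes (a ratio), log2 fold changes, p-values and adjusted p-values, fibroblast over exosome. The submitters' processing notes name CASAVA 1.8.2, cutadapt 1.2.1, DESeq and the build rn5. The aligner, the counting rule and the miRNA annotation release: not given in the sources used here. Columns were matched to samples by name, except the exosome column with no number, which was matched to its group only.

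Tests ran in R 4.3.3 with edgeR 4.0.16. After filterByExpr (a minimum count of 10 and a minimum total of 15), which removed 30 of 728 miRNAs, TMM-scaled counts were tested on group with the quasi-likelihood test, two-sided, at a Benjamini-Hochberg adjusted p of 0.05; 263 miRNAs had an unadjusted p under 0.05. An SE was taken as the log2 value over the root of its F statistic. A miRNA scarce in fibroblasts could pass the filter through its exosome reads, and among the members miR-450a-3p did. Arm usage was tested with diffSpliceDGE on the 248 hairpins with both arms past the filter. Log ratios within a library had 0.5 added to each count and were compared with an exact permutation test. The count test was checked on simulated data. Alternatives were DESeq2 1.42.0, other scalings and filters, thinning each fibroblast library to 117449 counts and leaving out each library; total counts without miR-873-3p were added after the data were seen. In the shallowest exosome library 0 reads would allow up to 0.00265% of counts (3 counts of its total). Floors and intervals cover counting error only, because PCR copies are not separate molecules. All pairs of libraries within a group differed by more than sampling noise (chi-square 3.23 to 621 per degree of freedom). All 10 members were named, other miRNAs by family (up to 4 past the threshold, and the seed mates) or by likeness (the 5 nearest). RefSeq mature sequences matched 655 of the listed miRNAs.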

Additional observations from a re-analysis of the deposited data

How the results depend on the processing

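Members called lower numbered 4 to 6 and members called higher 1 under all settings except thinned fibroblast libraries, with 2 higher, and total counts without miR-873-3p (added later), with 2 lower and 4 higher. Over all miRNAs, higher calls were 43 with total counts; lower and higher calls were 202 and 34 with library sizes that include other reads, and 36 and 378 with total counts without miR-873-3p. Without 1 library, lower calls lay between 86 and 139, higher calls between 46 and 78, and called hairpins of the 5 between 1 and 2. Called hairpins were 1 with library sizes that include other reads, with the reads of the normalized table and with thinning; under these and without fibroblast library 1, 2 or 4, miR-450a-3p did not pass the filter, so that 1 hairpin was not tested. Fitted values that changed sign were miR-503-3p at -0.19 with other reads in the library size, miR-351-3p, miR-542-5p and miR-542-3p at 1.84, 1.68 and 0.77 with total counts without miR-873-3p, and the arm change of miR-542 at -0.0014 with the block and -0.25 to 2.03 without 1 library; the cause was not tested. Among the within-library log2 ratios, which carry no adjusted p, the miR-322-3p to miR-322-5p ratio was -0.11 and the miR-322 arm ratio 0.11 without exosome library 2, and the miR-542 arm ratio, 0.65 with all libraries, was -0.014 without the unnumbered one. The cluster share, exosome minus fibroblast, was -1.57 percentage points, or -0.588 with miR-873-3p taken out of the totals. With the replicate number as a block in the 4 libraries numbered 1 and 2, 142 miRNAs were lower and 100 higher, 4 members were lower and 1 higher, miR-542-3p (log2 -1.25, edgeR adjusted p = 0.11) and the miR-503 arm change (1.33, adjusted p = 0.19) were not called, and the other member calls held. That fit had only 4 libraries for its group and block terms. Its p-values therefore rest mostly on spread pooled over all miRNAs and say little about the spread of a single one. Same-numbered libraries deviated together with r of -0.069 and 0.16 across miRNAs, and no label says that a number marks a shared culture. Exosome depth, 11825 to 18164 counts without miR-873-3p, limits every member with under 10 exosome reads: both miR-322 arms and both miR-450a arms.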
